A study of Mus musculus with 4 samples.

Results

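The contractile genes of smooth muscle in the spleen did not differ between Snd1 knockout (KO) and wild-type (WT) mice beyond the spread between arrays. Arrays of the same genotype kept 1 order on 11 of the 12 tested probes. The genes were taken from a list of 10 (Acta2, Actg2, Tpm1, Tpm2, Cnn1, Tagln, Myh11, Myl9, Mylk and Des), by finding every array probe annotated with one of these symbols. The rule found 15 of the 25697 probes, for 9 of the 10 genes. Myl9, which encodes the regulatory light chain of smooth muscle myosin, was matched by no probe and was not analysed here. 12 of the 15 probes, for 8 genes, were above background on all 4 arrays and were tested.

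Total RNA came from the spleens of female C57BL/6N mice aged 8 to 12 weeks by their labels (a legend of the study gives the lower end alone), 2 WT and 2 Snd1 KO samples described as biological duplicates, with 1 Illumina MouseRef-8 v2.0 bead array each. The KO mice lack the first exon of Snd1, the gene of an RNA-binding coactivator of transcription. According to the methods, the exon was flanked by loxP sites in 129/Sv embryonic stem cells, deleted in the germline with a CAG-Cre transgene so that every cell type carries the deletion, and the line was backcrossed to C57BL/6N. WT and KO animals were littermates of heterozygous breeding pairs. Part of each spleen was homogenised whole, so capsule, trabeculae, vessels and pulp were measured as 1 mixture.

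Smooth muscle of the spleen lies in its arteries and veins and, together with myofibroblast-like cells, in the capsule and the trabeculae that run into the pulp. In these cells actin filaments carrying tropomyosin, calponin and transgelin slide against filaments of smooth muscle myosin, after calcium and calmodulin activate the kinase that phosphorylates the myosin light chain. Desmin filaments link this apparatus to the dense bodies and the membrane. Many of these genes are switched on by serum response factor and its partner myocardin through a short promoter element, the CArG box.

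The arrays were alike in the number of probes above background and in their correlations, though not in every tissue marker, as given below. Between 12396 and 12908 probes were above background on an array, and the arrays correlated at r = 0.972 to 0.984 with each other across the 12493 tested probes, which are not independent replicates. Of 22 genes of spleen lymphocytes and red pulp on the array, 19 were above background on each of the 4 arrays. The Snd1 probe had deposited signals of 186.8 and 213.6 in WT and, below the detection threshold, 96.4 and 102.3 in KO, with an adjusted p of 0.0869 (limma). The sources used here do not place this probe relative to the deleted exon.

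None of the 12 tested contractile probes passed the threshold of 0.05 after Benjamini-Hochberg adjustment over all tested probes (limma, adjusted p from 0.771 to 0.998), and none had an unadjusted p under 0.05. Over the whole array 2 probes passed, 0.016% of those tested, and 6.09% had an unadjusted p under 0.05. The KO and WT values overlapped on all 12 probes, whereas they did not on 37.9% of all tested probes. The means of 6 of the 12 were higher in KO, against 48.9% of all tested probes. With the brightest probe standing for each gene, the median difference over the 8 genes was 0.0076, against 0.0041 over the 8716 tested genes (log2, KO minus WT). The 95% interval lay within 2-fold in both directions for 11 of the 12 probes, the exception being Actg2. In bulk tissue, fewer smooth muscle cells and less RNA per cell cannot be told apart.

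**Figure D1:**
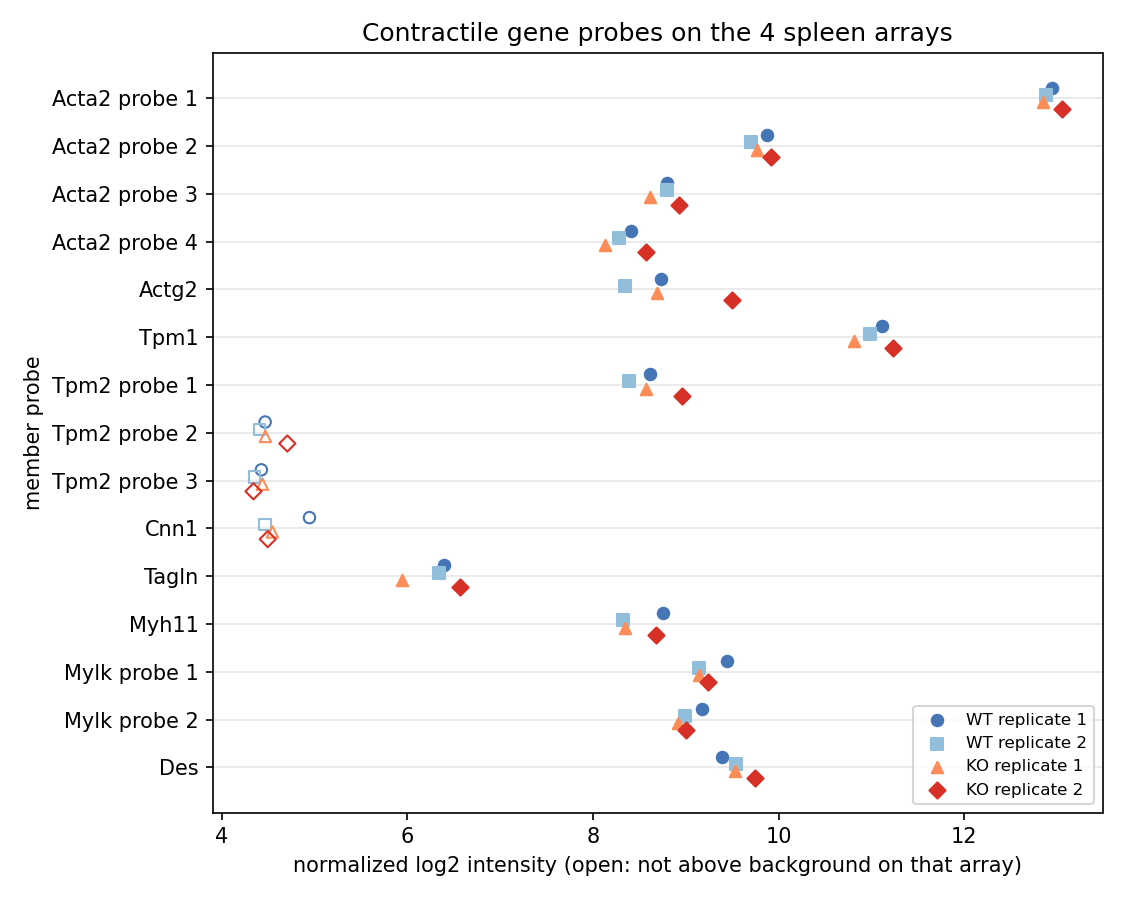
Normalized log2 intensity (x axis) of each of the 15 member probes (y axis) on the 4 arrays, 1 symbol per array, with open symbols where the probe was not above background. The WT and KO symbols intermingle on every tested row, and the Cnn1 probe and 2 of the 3 Tpm2 probes were open on all 4 arrays.

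Smooth muscle α-actin, Acta2, the main actin of the thin filament and the usual marker of vascular smooth muscle and myofibroblasts, was measured by 4 probes. The brightest read deposited signals of 7947 and 7260 in WT and 7657 and 8560 in KO. On the normalized log2 scale these were 12.95 and 12.88 in WT and 12.85 and 13.06 in KO. The KO values thus enclosed both WT values. KO minus WT was 0.04 ± 0.15 (log2, SE, n = 2 per group), or 1.03-fold, with a 95% interval from 0.783-fold to 1.35-fold and an adjusted p of 0.971 (limma). The other 3 probes gave differences of 0.05, -0.03 and 0.01, and the groups overlapped on each. On all 4 probes KO replicate 2 read above KO replicate 1, by 0.15 to 0.44 on the log2 scale.

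The Acta2 promoter carries paired CArG boxes, shown here because they are the element through which serum response factor acts on this gene. In the RefSeq promoter window of Acta2 (250 bases before to 50 after the annotated start, GRCm38.p6, minus strand) 2 boxes were found that each hold 1 G or C among the central A and T bases. The Myl9 window holds 1 box with none and another with 1. The box is in capitals, with up to 10 flanking bases on either side.
Acta2, 84 bases before the start, chr19:34255438-34255467: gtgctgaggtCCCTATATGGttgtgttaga
Acta2, 34 bases before the start, chr19:34255388-34255417: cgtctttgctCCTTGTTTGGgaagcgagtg
Myl9, 161 bases before the start, plus strand, chr2:156775293-156775322: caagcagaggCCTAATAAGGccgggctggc
RefSeq windows matched 7 of the 10 genes by symbol, with none matched for Actg2, Myh11 and Tagln. Boxes with at most 1 such substitution were found in 2 of the 7, Acta2 and Myl9, and in 9.98% of all 32851 windows of 300 bases, and boxes with none in 1 of the 7 and in 1.63% of all. The box reads the same in form on both strands. A match describes these letters only, and the window of 300 bases leaves out introns and distant elements.

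Actg2, the γ-actin of visceral smooth muscle, had the largest difference of the members and the largest spread. Its signals were 504 and 394 in WT and 498 and 849 in KO, or 8.74 and 8.34 against 8.69 and 9.50 on the normalized log2 scale. KO replicate 1 lay between the WT values and only KO replicate 2 lay above them. The difference was 0.55 ± 0.31 (log2, SE, n = 2 per group), 1.47-fold with a 95% interval from 0.837-fold to 2.56-fold, and did not pass (adjusted p = 0.771, limma). Without KO replicate 2 it was 0.15 and without KO replicate 1 it was 0.96. The coding sequences of the actins are close to each other, and whether a probe of one binds the transcript of another was not tested.

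The tropomyosins wind along the actin filament and set the access of myosin to it. Tpm1 read 11.11 and 10.98 in WT and 10.81 and 11.23 in KO, with 1 KO value below and 1 above both WT values. Its difference was -0.02 ± 0.19 (log2, SE, n = 2 per group; adjusted p = 0.986, limma). Tpm2 had 1 probe above background, with 8.62 and 8.39 in WT and 8.57 and 8.96 in KO. Here KO replicate 1 again lay between the WT values and the difference of 0.26 ± 0.20 did not pass (adjusted p = 0.807, limma). The other 2 Tpm2 probes, with signals from 90.3 to 106.8, were not above background on any array and gave no fold. Tpm1 and Tpm2 are also made in striated muscle and, as other splice forms, in many other cells.

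Of the proteins that bind the thin filament, transgelin was measured near the dim end and calponin was not. Tagln, which encodes the actin-binding protein SM22, read signals of 167 and 161 in WT and 145 and 184 in KO. On the normalized log2 scale the WT values were 6.40 and 6.34 and the KO values 5.94 and 6.57, so that the KO arrays stood on either side of the WT pair. The difference was -0.11 ± 0.24 (log2, SE, n = 2 per group), 0.924-fold with a 95% interval from 0.601-fold to 1.42-fold (adjusted p = 0.942, limma). Cnn1, which encodes calponin 1, an inhibitor of the myosin ATPase in its resting state, gave signals of 113.9 and 97.3 in WT and 100.6 and 99.1 in KO, not above background on any array. A probe at background does not show that a transcript is lacking, since the only probes for Rhoa and Actg1, genes used by nearly every cell, were also not above background on any array.

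After normalization, the motor and its kinase were the members that read highest on WT replicate 1. In the deposited signals Myh11 was highest on KO replicate 2. Myh11, the smooth muscle myosin heavy chain and the most specific marker of the mature cells, read signals of 510 and 390 in WT and 410 and 516 in KO. Its normalized log2 values were 8.76 and 8.32 in WT and 8.34 and 8.68 in KO, so that both KO values lay between the WT values. The difference was -0.03 ± 0.22 (log2, SE, n = 2 per group), 0.978-fold with a 95% interval from 0.661-fold to 1.45-fold (adjusted p = 0.983, limma). Mylk, the myosin light chain kinase, had 2 probes. The brighter read 9.44 and 9.15 in WT and 9.15 and 9.24 in KO, and the other 9.18 and 9.0 in WT and 8.92 and 9.0 in KO. On both, WT replicate 1 was the highest array and the rest lay close together. The differences were -0.10 and -0.13 (log2), and the lower end of the 95% interval was 0.692-fold for the first and 0.701-fold for the second.

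Des, the desmin of muscle intermediate filaments, which is also made by pericytes and some reticular cells of the spleen, was the 1 tested member that was higher on WT replicate 2 than on WT replicate 1. Its signals were 742 and 801 in WT and 828 and 987 in KO. The normalized log2 values were 9.39 and 9.55 in WT and 9.53 and 9.75 in KO, and the groups just overlapped. At 0.17 ± 0.16 (log2, SE, n = 2 per group), or 1.13-fold, Des did not pass (adjusted p = 0.852, limma). With median scaling, as in the deposited signals before normalization, both Des values in KO lay above both in WT, and Des was the only one of the 12 probes for which that held.

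**Figure D2:**
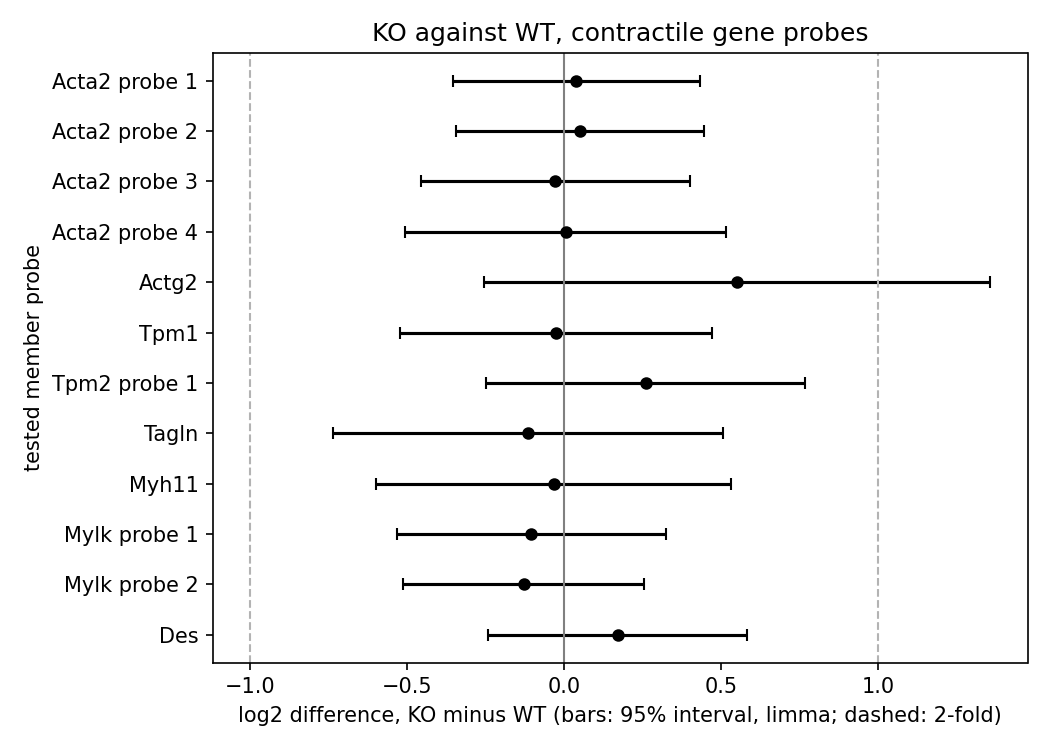
Log2 difference, KO minus WT (x axis), of each of the 12 tested member probes (y axis), with the 95% interval from limma as bars and dashed lines at 2-fold. Every interval crosses 0, and only that of Actg2, from 0.837-fold to 2.56-fold, passes a dashed line.

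Within each genotype the contractile probes shared an order of arrays. KO replicate 2 exceeded KO replicate 1 on 12 of 12 probes, against 52.3% of all tested probes. WT replicate 1 was higher than WT replicate 2 on 11 of 12, against 41.3%. Both orders held together for 11 of 12 probes, against 17.4% of all tested probes, and KO replicate 2 was the highest of the 4 arrays on 9 of 12, against 23.1%. The lowest array was KO replicate 1 or WT replicate 2 on 11 of 12, against 47.8%. Each order gave the same count, 12 or 11, in the deposited signals, in the authors' value table, and under median scaling, a larger offset or no background correction. In the deposited signals the shares of all tested probes were higher, at 62.1% for the KO order, 47.7% for the WT order, 25.3% for both and 38% for KO replicate 2 as the highest array, which held for 10 of the 12. The members share their arrays and the tissue pieces, and several probes share a gene, so these counts describe 4 arrays and carry no test.

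By size, the KO replicate 2 minus KO replicate 1 difference had a median of 0.32 over the 12 probes and of 0.01 over all tested probes (log2). It was largest for Actg2 (0.81) and Tagln (0.63) and smallest for the Mylk probes (0.09 and 0.08). The WT replicate 1 minus WT replicate 2 difference had a median of 0.15 over the 12 probes and of -0.06 over all tested probes. It was largest for Myh11 (0.44) and Actg2 (0.40), and -0.16 for Des. In deviations from each probe's own mean, the median of the 12 probes was 0.06 on WT replicate 1, -0.06 on WT replicate 2, -0.12 on KO replicate 1 and 0.17 on KO replicate 2.

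**Figure D3:**
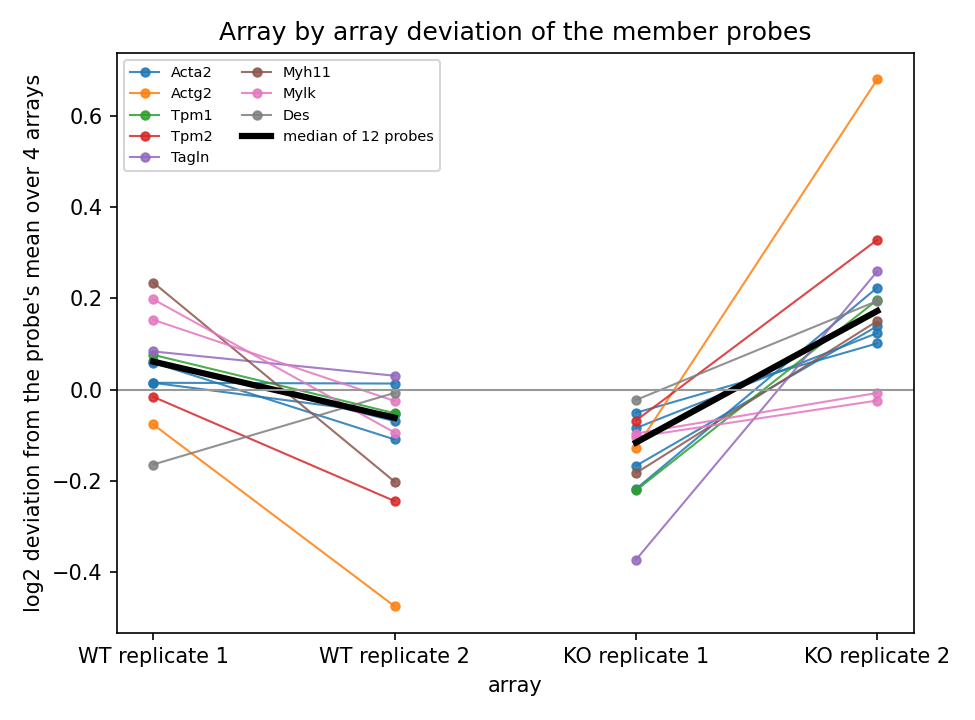
Log2 deviation of each of the 12 tested member probes from its own mean over the 4 arrays (y axis) on each array (x axis), coloured by gene, with lines joining only the arrays of 1 genotype and the median in black. The median stands at 0.06 and -0.06 on the WT arrays and at -0.12 and 0.17 on the KO arrays, and Actg2 spreads the most.

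**Figure D4:**
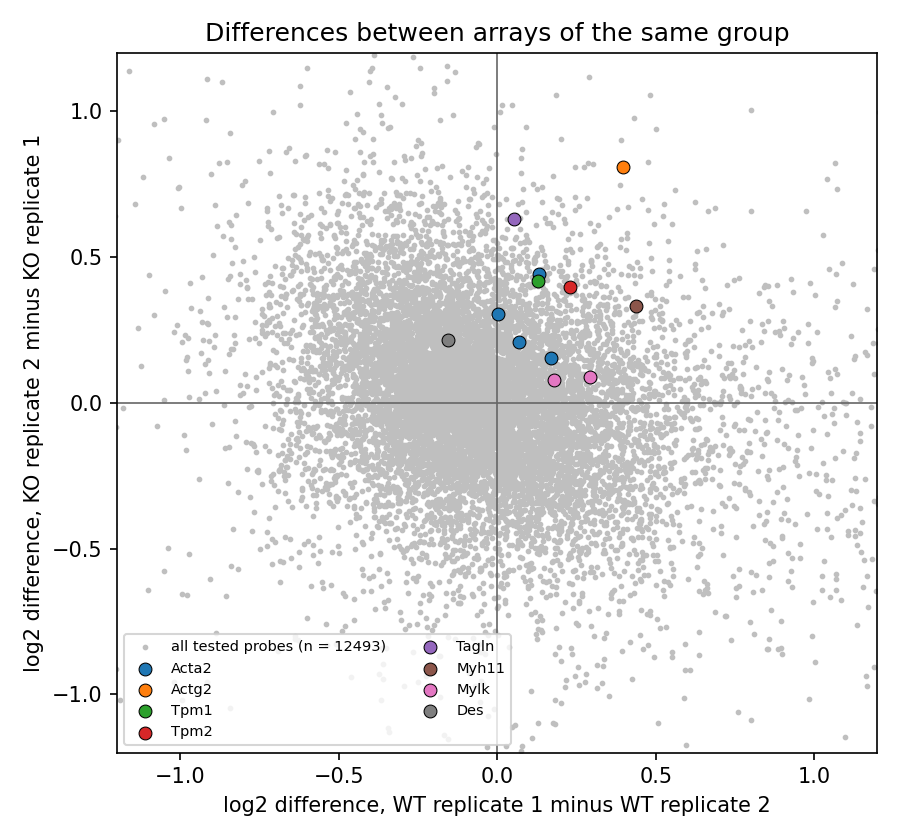
Log2 difference between the WT arrays (x axis, replicate 1 minus replicate 2) and between the KO arrays (y axis, replicate 2 minus replicate 1) for all 12493 tested probes in grey and the 12 member probes in colour, with 441 probes outside the axes. All 12 member probes lie above 0 on the y axis and 11 of them to the right of 0 on the x axis, with Des to the left.

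Markers of other cell types also differed between the arrays of a genotype, and their part in the order of the contractile genes was not tested. Of 19 tested endothelial genes, 16 read higher on KO replicate 2 than on the other KO array (median 0.26, log2), and their summed normalized intensity was 10791 and 11025 in WT and 12142 and 13947 in KO. Adipocyte genes were higher on KO replicate 2 for 7 of 8 tested (median 0.41), with 5 to 10 of the 15 genes on the array above background on an array and summed intensities of 3065 and 3323 in WT and 4067 and 6078 in KO. The adipocyte genes Ces1d, Adipoq and Lep and the endothelial gene Flt4 passed the filter through the KO arrays alone. Lep and Flt4 are named for that, after their values were seen. Adipoq, an adipokine, read 4.75, 4.69 and 5.18 on WT replicates 1 and 2 and KO replicate 1 and 9.69 on KO replicate 2. Other adipocyte genes were not tested, and those named here were picked after their values were seen. Fabp4, Plin1 and Retn were not above background on any array. Car3, Cidec and Slc2a4 were above background on 1 array each. The highest signals were 719.4 for Car3 and 136.5 for Cidec, on KO replicate 2, and 135.2 for Slc2a4, on WT replicate 1. Exocrine pancreas genes stood out on KO replicate 1, where 20 of 23 were above background against 4 on each other array, and summed to 8127 there and to 781 to 973 elsewhere. The WT order of the members was not clear in these lists, with WT replicate 1 higher for 7 of 19 endothelial genes (median -0.12) and 5 of 8 adipocyte genes (median 0.09).

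Most striated muscle genes were not above background, though some, such as Myl4, were well above it. Of 28 striated muscle genes on the array, 8 to 12 were above background on an array, and 16 had no probe above background on any array, among them the skeletal and cardiac actins Acta1 and Actc1, the myosins Myh1, Myh4, Myh6 and Myh7, creatine kinase Ckm and myoglobin Mb. Summed normalized intensities were 1836 and 1711 in WT and 2014 and 2035 in KO. The median difference over the 10 tested genes was -0.08 (log2), but 0.04 without KO replicate 1, and the 1 with the smallest p, Myl4, which encodes an atrial and embryonic light chain, was higher on both KO arrays (8.94 and 9.09 in WT, 9.76 and 9.55 in KO) and did not pass (adjusted p = 0.771, limma).

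Smooth muscle genes outside the 10 were higher in the mean for 16 of 20 tested, with a median of 0.22 (log2), or 0.10 without background correction and without a filter. For 9 of the 20 both KO values lay above both WT values and for 0 below, against 19.4% and 18.5% of all tested probes. The threshold was passed by 0 of 20 (limma), and 2 had an unadjusted p under 0.05, against 6.09% of all tested probes. Jph2, 1 of these 9 and named here after its values were seen, passed the filter through the KO arrays alone. Gucy1b1, a subunit of the guanylate cyclase that senses nitric oxide and leads to relaxation, read 5.38 and 5.27 in WT and 6.02 and 6.14 in KO (difference 0.76 ± 0.15, SE, or 0.29 without background correction). Smtn, the smooth muscle actin-binding protein smoothelin, read 8.49 and 8.36 in WT and 8.96 and 8.75 in KO. Fhl1, a LIM domain protein of muscle, and Aoc3, an amine oxidase on the surface of smooth muscle cells and adipocytes, were at 0.41 and 0.94, and the Aoc3 value rested largely on KO replicate 2 (8.59 against 7.54 on KO replicate 1). The order of the contractile members was less clear in this list, with KO replicate 2 above KO replicate 1 for 14 of 20 and WT replicate 1 above WT replicate 2 for 8 of 20. The 4 genes with lower means were Csrp1 (-0.61), Npnt (-0.16), Lmod1 (-0.13) and Vcl (-0.07), all with overlapping groups. They are named here after their values were seen. The Csrp1 value rested largely on KO replicate 2 (9.29 against 10.56 on KO replicate 1). Whether the list differs from the members was not tested.

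The non-muscle relatives of the members, the actins, myosins and binding proteins that most cells use, lay close to 0. Of 10 tested, 6 had higher and 4 lower means, the differences ran from -0.15 to 0.13 (log2), and 0 passed the threshold (limma, 0 at an unadjusted p under 0.05). Myl6, the essential light chain shared by smooth muscle and non-muscle myosin, had the smallest p, at 11.63 and 11.64 in WT and 11.48 and 11.49 in KO. Tpm3, Cnn2 and Myl12a, relatives of 3 member families, were at 0.13, 0.11 and -0.06, with overlapping groups.

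Genes that control contraction did not pass either. Of 13 tested genes for receptors, enzymes and other proteins of contraction signalling, 5 had higher and 8 lower means, with a median of -0.07 (log2), which turned to 0.09 with the mean of each gene's probes, and 0 past the threshold (limma, 0 at an unadjusted p under 0.05). The channel genes Cacna1c and Ryr2 were not tested. Dapk3, a kinase that acts on the myosin light chain and its phosphatase, was higher on both KO arrays (7.29 and 7.24 in WT, 7.51 and 7.61 in KO), as was the angiotensin receptor Agtr1a (8.84 and 8.30 in WT, 8.90 and 8.96 in KO). The endothelin receptor Ednrb was at 0.46 with overlapping groups. Camk2g, a calmodulin-dependent kinase, was lower on both KO arrays at -0.25, but at 0.09 with the mean of all its probes.

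Transcription factors of smooth muscle went in both directions. Of 9 tested, 6 had higher and 3 lower means, with a median of 0.14 (log2), or 0.085 without background correction. The threshold was passed by 0 (limma), and 2 had an unadjusted p under 0.05, against 6.09% of all tested probes. Tead4, 1 of the 6 with a higher mean and named here after its values were seen, passed the filter through the KO arrays alone. Myocd, the myocardin that drives the contractile genes with serum response factor, was dim, at 5.39 and 5.21 in WT and 5.47 and 5.70 in KO. Gata6, a factor of vascular smooth muscle and of mesothelial cells and peritoneal macrophages, read 7.42 and 7.47 in WT and 7.97 and 8.16 in KO. Klf4, which represses contractile genes in cultured smooth muscle and is used by many other cells, read 5.27 and 5.35 in WT and 6.07 and 5.89 in KO. Mef2c, a factor shared with B cells, was at -0.34 with overlapping groups. Srf, which encodes serum response factor, read 9.78 and 10.04 in WT and 9.65 and 9.83 in KO (difference -0.17, log2). Mrtfa was at -0.16, and the groups overlapped for both. Srf and Mrtfa are named here after their values were seen.

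Genes of the cells that lie beside smooth muscle in the capsule and vessels had larger median differences. Over 9 tested pericyte genes, 8 with a higher and 1 with a lower mean, the median was 0.38 (log2), and over 9 mesothelial genes, also 8 and 1, it was 0.96. Over 20 fibroblast and reticular cell genes, 13 with higher and 7 with lower means, it was 0.37, beside 0.0076 for the 8 members. The sizes depended on the processing: without background correction the medians were 0.19, 0.51 and 0.23 in the same order, and without a filter 0.20, 0.20 and 0.35. The mesothelial genes Upk1b and Nkain4 and the fibroblast genes Lum and Col3a1, named here after their values were seen, passed the filter through the KO arrays alone. So did the pericyte gene Rgs5. Rgs5, Upk1b and Lum are among the genes counted next by unadjusted p. None of the pericyte, mesothelial, or fibroblast and reticular cell genes passed the threshold (limma, 0 called). At an unadjusted p under 0.05 (limma), 3 pericyte and 6 mesothelial genes were higher. So were 8 fibroblast and reticular cell genes, with 1 lower. Over all 12493 tested probes, 414 were higher and 347 lower at that level, or 6.09% in either direction. Of the pericyte genes, Abcc9, part of a potassium channel of mural cells, read 6.88 and 6.68 in WT and 7.33 and 7.30 in KO, and the signalling regulator Rgs5 read 5.95 and 5.0 in WT and 6.41 and 6.30 in KO. Dcn, decorin of the collagen matrix, read 9.96 and 10.27 in WT and 11.74 and 11.71 in KO, while Acta2 on the same arrays overlapped between groups. Cxcl13, a chemokine of follicular stromal cells and the 1 lower gene, named for that count, had signals of 3072 and 3055 in WT and 2142 and 1885 in KO. Upk3b, a uroplakin of mesothelium, read 6.05 and 6.21 in WT and 8.19 and 8.34 in KO. Other genes of that list did not show this. Msln, Lrrn4, Krt19, Krt18, Gpm6a and Efemp1 were above background on no array and were not tested. The groups overlapped for Krt8 at 0.11 and Krt7 at -0.17, named here after their values were seen. Summed normalized intensities of the 16 mesothelial genes on the array were 3417 and 3312 in WT and 6710 and 6415 in KO, and those of the 9 contractile genes 12840 and 11946 in WT and 11676 and 14128 in KO. Most of each mesothelial sum came from Slpi and Igfbp5, so the sums say little about the rest of that list. Slpi read 10.77 and 10.51 in WT and 11.72 and 11.59 in KO, and Igfbp5 9.87 and 10.03 in WT and 10.97 and 10.86 in KO. The mesothelial median of 0.96 is the value of Igfbp5 itself. The lists were chosen with earlier results of these data known, and no test of the difference between lists was made.

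**Figure D5:**
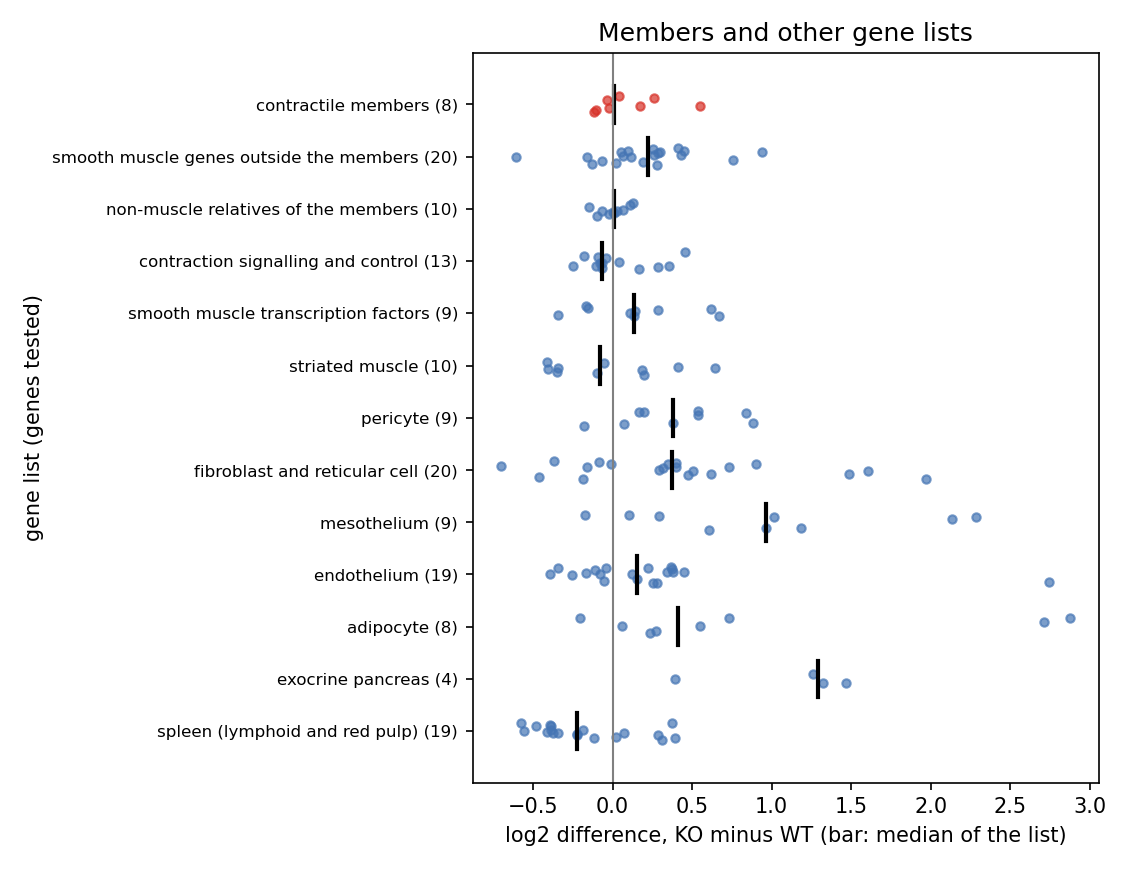
Log2 difference, KO minus WT (x axis), of each tested gene, 1 point per gene by its brightest probe, for the 8 contractile members in red and 12 other lists in blue (y axis, with the number of genes), with the median of each list as a bar. The member median of 0.0076 lies at the zero line with the non-muscle relatives, and the mesothelial median is at 0.96, or 0.51 without background correction.

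Over the 4 arrays, the genes most like the mean profile of the 8 members were Ptprv, Angptl4, Dcp1b, Hspa1a, Prepl and Wipi1, with r from 0.971 to 0.992 as a description over 4 arrays. They were sought among 1455 genes that were above background on all 4 arrays and varied with an SD of at least 0.3, and 7 of these had an r over 0.95. Angptl4, a secreted inhibitor of lipoprotein lipase, read 9.44 and 9.06 in WT and 9.17 and 9.92 in KO. Hspa1a, an inducible heat shock protein, read 5.54 and 5.14 in WT and 5.26 and 6.16 in KO. Among the members themselves Acta2 followed the mean profile most closely and Mylk and Des least. Each member is part of that mean, so its r with it is partly built in. Members that varied more, such as Actg2 (SD 0.49 over the arrays, against 0.09 for Acta2), weigh more in it.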

How the data were processed

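Spleen RNA of 2 WT and 2 KO mice was measured on 1 bead array each. The authors deposited probe intensity values from Illumina GenomeStudio without normalization, and detection values deposited as a fraction, high for bright probes, which were read as 1 minus the detection p-value. They also deposited a log2 value table, used as an alternative only. Its scale and centring are unstated, and it matched the quantile-normalized log2 signals for all probes but 1, with column medians of 6.82. The sources used here do not give the array slide, scan batch or genome build, and p-values measure only the spread between these 4 samples.

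Signals were background-corrected with normexp (offset 16, negative controls inferred from the detection p), quantile normalized and log2-transformed by neqc (limma 3.58.1, R 4.3.3). Tested were the 12493 of 25697 probes that had a detection value over 0.95 on each array of WT, of KO or of both, with lmFit and eBayes (5.04 total degrees of freedom) and Benjamini-Hochberg adjustment at 0.05. An exact two-sided permutation test at this size gives no p below 0.333 and was not used. Of all probes, 23978 had 1 gene symbol, 0 several and 1719 none here. Where a gene had several tested probes, the one of highest mean stood for it, and probes were numbered by mean. Promoter sequences are from RefSeq (GRCm38.p6). The fit was tested on simulated data.

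Named genes were all members, Snd1, at most 4 genes of smallest p in each other list and the 6 genes most like the members. Angptl4 and Hspa1a were singled out among the last 6, and untested genes named as not above background were picked, once their values were known. The members and lists were chosen with earlier results of these data known. The alternatives tried were no background correction, an offset of 50, median scaling, the value table, filtering none or only probes at a detection p under 0.01 throughout, the mean of a gene's probes, a trend and robust prior, an unmoderated test, a replicate block and leaving out each array.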

Additional observations from a re-analysis of the deposited data

How the results depend on the processing

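No member passed the threshold under any of the 14 alternatives, and the member median moved by less than its spread between replicates in all but 1, running from -0.11 without KO replicate 2 to 0.19 without KO replicate 1 among the fits that left out an array. The count of tested probes past the threshold was 2, and was 0 with no background correction, no filter, the unmoderated test, the replicate block or the authors' value table. It was 4 at the larger offset of 50 and 8 under a trend and robust prior, and ran from 0 to 16 when an array was left out. The count over the other lists was 0, and was 2 with a trend and robust prior (Dcn, Upk3b) and ran from 0 to 2 when an array was left out (Igfbp6 and Esm1 without WT replicate 1). Differences near 0 changed sign. With median scaling these were Acta2, probe 3 (0.013), Tpm1, probe 1 (0.0055) and Myh11, probe 1 (0.014), and with the mean of its probes Camk2g (0.090). Leave-one-out ranges that crossed 0 were -0.065 to 0.14, -0.034 to 0.13, -0.18 to 0.13 and -0.22 to 0.23 for Acta2 probes 1 to 4, -0.23 to 0.18 for Tpm1, -0.43 to 0.20 for Tagln, -0.25 to 0.19 for Myh11, -0.25 to 0.042 for Mylk probe 1, -0.15 to 0.36 for Cnn2 and -0.79 to 0.094 for Mylpf. For the pancreas genes on KO replicate 1 they were -0.12 to 2.64 for Ctrl, -0.23 to 3.17 for Cpa1 and -0.52 to 1.30 for Cela1. The cause of these changes was not tested. Same-numbered WT and KO arrays deviated together only weakly (r = 0.19 over tested probes) and share only a number. With the replicate block the smallest adjusted p of a member was 0.630, and the block changed no member's call. Tagln, with signals of 145 to 184 lay close to background, and having only 4 arrays limits how precisely any difference is known.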
